A study of Homo sapiens with 2 samples.

Results

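The stretch of chromosome 11 that holds ELF5, EHF and CD44 was examined in a list of H3K27ac HiChIP loops from KYSE180 cells. Its loops were all those with at least 1 bin starting between 34450000 and 35450000 on hg19, the build that the labels name, which gave 82 of the 31950 loops of the list. Within this window of 1 Mb, EHF starts near 34642600 and CD44 near 35160417, both on the plus strand, and ELF5 lies near 34500000 to 34535000 on the minus strand. HiChIP reports pairs of regions that were ligated to each other in fixed chromatin pulled down with an antibody, here against H3K27ac, a histone mark of active promoters and enhancers. KYSE180 is an established cell line of esophageal squamous cell carcinoma (ESCC), and the cells had been transfected with a non-targeting siRNA. There were 2 libraries of this 1 condition, and the authors deposited 1 list for both, so no value has a spread between replicates and no condition can be compared with another.

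ELF5 and EHF are neighbouring genes for epithelium-specific transcription factors of the ETS family, which bind DNA at sites with a GGAA core and act in the differentiation of glandular and stratified epithelia. CD44 encodes a cell surface glycoprotein that binds hyaluronan and other matrix components, and its spliced variants are abundant in the basal layers of squamous epithelia. It is widely used as a marker of basal and stem-like tumor cells. A promoter can be reached by enhancers that lie far from it or within a neighbouring gene, and a HiChIP loop shows such contact but does not say whether it acts on transcription.

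Protein-coding genes follow each other here in the order CAT, ELF5, EHF, APIP, PDHX, CD44 and SLC1A2 in RefSeq on GRCh38. CAT encodes catalase, APIP an enzyme of methionine salvage, PDHX a component of the pyruvate dehydrogenase complex and SLC1A2 a glutamate transporter. Because GRCh38 is not the build of the list, only the order of these genes was used. The starts of EHF and CD44 were 517.8 kb apart on hg19 and also 517.8 kb apart in GENCODE on GRCh38.

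The promoter sequences of CD44 and EHF are shown because the bin with the CD44 start was an anchor, whereas the bin with the EHF start was not. They are RefSeq sequences on GRCh38.p14, plus strand, 250 bases before to 50 bases after an annotated start, at chr11:35138921-35139220 for CD44 and at chr11:34624007-34624306 and chr11:34632316-34632615 for the pair of EHF starts in the table. On GRCh38 these starts lie 0.289 kb (CD44), 3.16 kb and 11.5 kb (EHF) after the first start that GENCODE lists, so neither EHF sequence is that of the start from which loops are counted. The EHF start at 11.5 kb may itself lie on an anchor, as described below. The EHF sequences thus do not stand for promoters without loops. Capitals mark matches, on either strand, to TGANTCA (AP-1), CGGAAG (an extended ETS core), a pair of CNNG with 6 bases between them (the spacing of the p53 family, which includes p63) or TATAAA.
CD44: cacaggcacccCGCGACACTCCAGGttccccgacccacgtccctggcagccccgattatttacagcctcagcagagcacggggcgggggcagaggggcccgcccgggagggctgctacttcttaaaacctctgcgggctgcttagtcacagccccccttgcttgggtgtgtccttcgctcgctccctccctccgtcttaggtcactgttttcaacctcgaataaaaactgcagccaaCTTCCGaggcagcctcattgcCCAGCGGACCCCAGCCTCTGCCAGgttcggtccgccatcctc
EHF, start 3.16 kb after the first: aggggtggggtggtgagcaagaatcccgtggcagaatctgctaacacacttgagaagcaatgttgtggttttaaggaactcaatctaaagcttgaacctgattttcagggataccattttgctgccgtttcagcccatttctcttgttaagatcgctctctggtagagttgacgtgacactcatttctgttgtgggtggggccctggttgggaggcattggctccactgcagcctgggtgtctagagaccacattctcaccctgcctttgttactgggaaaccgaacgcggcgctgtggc
EHF, start 11.5 kb after the first: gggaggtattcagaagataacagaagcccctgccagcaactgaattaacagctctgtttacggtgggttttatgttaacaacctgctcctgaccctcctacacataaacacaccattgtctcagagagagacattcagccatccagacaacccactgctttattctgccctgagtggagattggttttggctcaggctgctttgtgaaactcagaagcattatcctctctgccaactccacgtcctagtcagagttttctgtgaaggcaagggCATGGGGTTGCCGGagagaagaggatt

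The CD44 promoter held CGGAAG once, on the minus strand from position -13 (the first transcribed base is 0), a motif found in 19.5% of the 35116 promoters of the table. The shorter GGAA core was not searched. It also held 3 matches to the p53-family spacing, of which the last 2 overlap, and the EHF window at 11.5 kb held 1. This spacing was found in 74.0% of all promoters and so distinguishes few of them. The AP-1 motif (7.71% of promoters) and TATAAA (11.5%) were in neither gene's windows, nor was any of the 4 motifs in the EHF window at 3.16 kb. The CD44 window was 63.3% G and C with 18 CpG dinucleotides, against 51.3% with 8 and 48.3% with 3 in the EHF windows and medians of 58.7% and 14 over the table. The ELF5 window had 51.3% and 2 CpG dinucleotides.

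Each loop joined 2 bins of 2 kb, called anchors, and carried a count of contacts and the coverage of its first bin. The 82 loops had 84 contacts. Of the loops, 80 rested on a single contact, for which the exact Poisson limits at 95% are 0.0253 and 5.57 contacts. The others, 2 loops with 2 contacts each, were 2.44% of the locus (95% Wilson interval 0.671 to 8.46%), against 3.36% of the whole list. Intervals cover counting error only, and reads without molecular identifiers are not independent molecules. The coverage of the 48 first bins in the window had a median of 13.5 (interquartile range 9 to 16.25) and ran from 3 to 41. The median was 12 in the rest of the list and 16 in the rest of chromosome 11.

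The window was denser in loops than its surroundings. The adjoining windows of 1 Mb below and above held 34 and 14 loops. These counts include loops shared with the locus: 6 with the outer bin within 500 kb below, 1 farther below, and 2 above. First bins in the adjoining windows had a median coverage of 10 and 11.5. Coverage is listed only where a loop was called, so it does not give the coverage of these windows as a whole. Among 4063 windows of 1 Mb with at least 1 loop, placed every 500 kb along the autosomes and X, 4.55% had as many loops or more. The median of these overlapping windows was 8 loops, and windows without a loop were left out. The window had 79 anchors in its 500 bins (15.8%), and 2.29% of the 4063 windows had as many or more.

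The median span at the locus was 104 kb (quartiles 36 and 356 kb, shortest 10 kb, longest 2670 kb), against 120 kb in the rest of the list. Spans of 10 to 50 kb made up 31.7% of the locus (Wilson interval 22.6 to 42.4%) and 31.0% of the rest of the list. Spans of 1 to 5 Mb made up 9.76% (5.03 to 18.1%) and 11.7%. In none of the 4 span classes did the value for the rest of the list fall outside the interval of the locus.

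**Figure D1:**
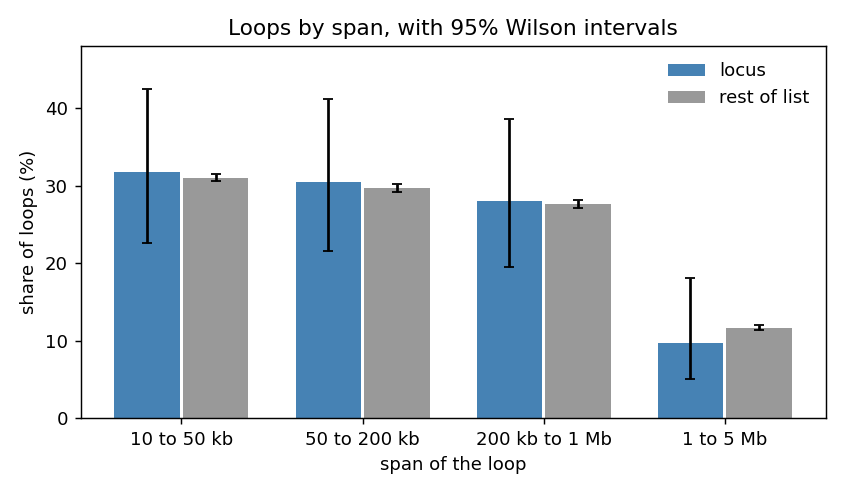
Share of loops (%) in 4 classes of span (x axis) for the 82 loops of the locus (blue) and the 31868 other loops (gray). Bars are shares and lines are 95% Wilson intervals; the locus and the rest of the list lie close to each other in every class, for example 31.7% and 31.0% at 10 to 50 kb.

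The CD44 start was an anchor. The bin that holds it, from 35160001 to 35162000, had 3 loops with 1 contact each, and all of them led to lower positions, that is, upstream. They came from bins 139.4, 81.4 and 55.4 kb before the start (spans 140, 82 and 56 kb), whose coverage was 7, 9 and 19. Within 5 kb of the start there were 9 loops (exact Poisson interval 4.12 to 17.1) and within 10 kb there were 12 (6.2 to 21.0), none with more than 1 contact.

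Anchors that touch were merged into stretches. The CD44 start lay at the lower edge of a stretch of 5 bins from 35160001 to 35170000, 10 kb long, with 12 loops to 8 other stretches. Stretches of the list had 2 loops in the median, and 2.4% of them had 12 or more. Only 1.16% of stretches were 10 kb or longer, and stretches of equal length were not compared. Of the 12 loops, 8 led upstream and 4 downstream. The bin from 35164001 to 35166000 had 4 of them and a coverage of 38, the second highest among the first bins of the window. Upstream partners lay 139.4 to 23.4 kb before the start and, for 1 loop of 1474 kb, at 33688001. Downstream partners lay 18.6 to 20.6 kb after the start in 3 loops and 98.6 kb after it in 1 loop.

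Loops near CD44 also passed over its start. Within 100 kb on each side, 8 loops with spans of 32 to 138 kb had their bins on opposite sides of it. Those from 95.4, 83.4, 27.4 and 23.4 kb upstream to 4.6, 4.6, 6.6 and 8.6 kb downstream ended within the stretch at the start. They are thus among its 12 loops, and only the others passed beyond that stretch. The anchor from 35136001 to 35138000, 23.4 kb upstream and with a coverage of 17, had 4 loops, all of them to the far side of the start. Their other bins lay 8.6, 20.6, 78.6 and 82.6 kb downstream, with 1 contact each. Only 1 loop near CD44 had 2 contacts, and it lay upstream of the start, from 35086001 to 35138001 with a span of 52 kb.

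Around CD44, 6 stretches with at least 5 loops each lay within 100 kb of the start. They began 78.4, 58.4 and 28.4 kb before it, at the start itself, and 17.6 and 77.6 kb after it, and had 5, 6, 9, 12, 6 and 8 loops. Of their 15 pairs, 8 were joined, by 13 loops with 14 contacts. The stretch at the start was joined to the stretch 17.6 kb downstream by 3 loops with spans of 18, 14 and 12 kb. It was joined by 2 loops to the stretch that begins 28.4 kb upstream. That upstream stretch was in turn joined by 2 loops to the stretch 77.6 to 83.6 kb downstream, which had no loop to the stretch at the start. CD44 is 93.5 kb long on GRCh38, and its end was not read from hg19. If that length holds on hg19, the stretches that begin 17.6 and 77.6 kb downstream both lie within the gene.

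**Figure D2:**
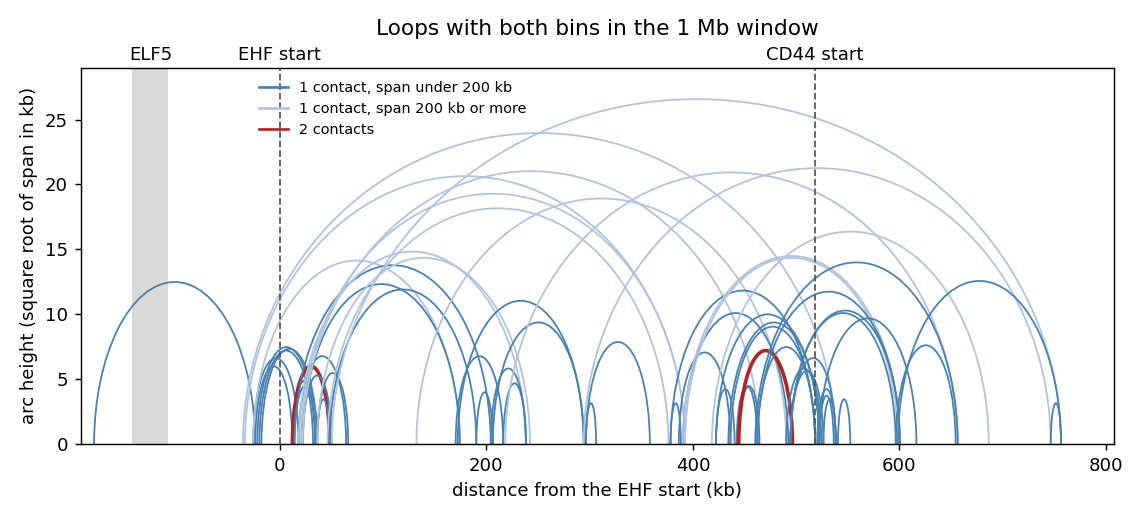
The 66 loops with both bins in the window, drawn as arcs over the distance from the EHF start (x axis, kb); the height of an arc is the square root of its span in kb, red arcs have 2 contacts, and dark and light blue arcs have 1 contact and spans under and from 200 kb. The gray band is the stretch given for ELF5 and the dashed lines are the starts of EHF and CD44; short arcs gather around both starts, and the band of ELF5 has no anchor.

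The EHF start at 34642600 was not an anchor. Within 1, 5 and 10 kb of 34642600 there were 0 loops (exact Poisson interval 0 to 3.69). CD44 had 3 (0.619 to 8.77), 9 and 12 loops at these widths, and at 1 kb the intervals overlap. Within 20 kb the counts were 12 at EHF and 14 at CD44, and within 50 kb 28 and 21. The contrast thus depends on the width, and no difference between the genes was tested. The EHF start sat in a gap of 28 kb without anchors, from 16.6 kb upstream to 11.4 kb downstream. A bin is in the list only if a loop was called there and both of its ends carried H3K27ac, and the methods describe the called loops as p63-associated. A bin that is absent, here or at ELF5, is therefore not shown to lack the mark or contacts.

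Loops passed over the EHF start at 34642600 instead. Directly upstream of the gap lay a stretch of 5 bins from 34616001 to 34626000, which is 10 kb long like the stretch at CD44, a length that 1.16% of stretches reach. Each of its 5 bins had exactly 1 loop over the start to a bin within 100 kb, with spans of 36 to 56 kb and 1 contact each. From the lowest bin to the highest, the other bins lay 18.4, 12.4, 34.4, 32.4 and 36.4 kb downstream of the start. The bin at 12.4 kb lies in a stretch that may hold a later EHF start, as described below, so that loop may end at an EHF start. The coverage of the 5 bins was 14, 18, 14, 9 and 10. In all, the stretch had 9 loops, of which 3 led to lower and 6 to higher positions.

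Downstream of the EHF start, 4 stretches with at least 5 loops each began 11.4, 17.4, 31.4 and 45.4 kb after it, with 5, 7, 9 and 6 loops. Together with the upstream stretch, these 5 stretches formed 10 pairs, of which 7 were joined, by 10 loops with 11 contacts. The upstream stretch and the one at 31.4 to 37.4 kb were joined by 3 loops, more than any other pair there. The only loop near EHF with 2 contacts spanned 36 kb, from the bin at 34654001 (coverage 17) to the bin at 34690001 (coverage 14). In the same region the anchor from 34678001 to 34680000 had 5 loops, with a coverage of 10. In the list, 5.12% of anchors had 5 or more.

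Several starts are annotated for EHF. On GRCh38, GENCODE lists basic transcripts of EHF that start 3.17, 11.4 and 21.5 kb after the first one, and the EHF promoters printed above belong to starts 3.16 and 11.5 kb after it. The anchored stretches downstream of 34642600 on hg19 ran from 11.4 to 15.4 kb and from 17.4 to 23.4 kb. These distances come from different builds, and no annotated start was converted to hg19. The spacing of the EHF and CD44 starts, however, differed by only 28 bases between the builds. If distances within EHF carry over alike, the starts at 11.5 and 21.5 kb fall within these anchored stretches. The start at 11.4 kb would then lie at the lower edge of the first of them, and that at 3.17 kb in the gap. The lack of loops within 10 kb of 34642600 therefore does not describe all EHF starts. For CD44, all 9 basic transcripts start within 1 kb of the first.

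The stretches near EHF and CD44 were picked for their loops after the values were seen, so the next shares only describe them. Of the 26 loops that involved the 5 stretches near EHF, 10 stayed among them (38.5%), and of the 33 loops that involved the 6 stretches near CD44, 13 did (39.4%). First bins within 50 kb of the start had a coverage of 14 in the median (lowest 4, highest 20, 15 bins) at EHF and 10.5 (lowest 4, highest 38, 6 bins) at CD44. The list gives no coverage for bins that are never a first bin, among them the bin with the CD44 start.

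**Figure D3:**
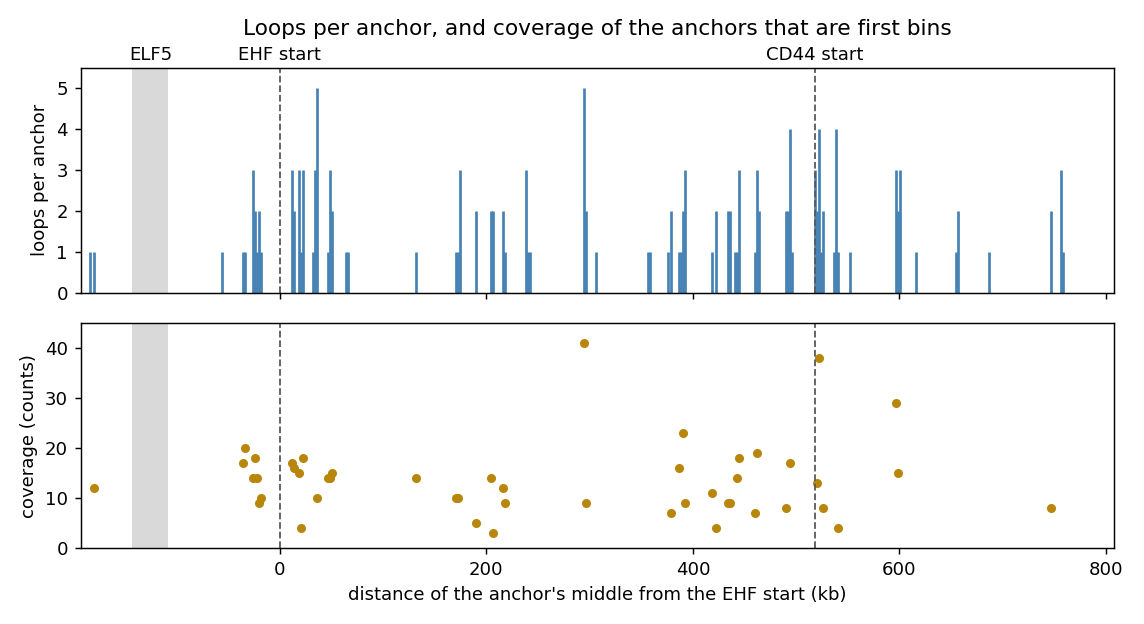
Loops per anchor (top, vertical lines) and coverage in counts of the anchors that are first bins (bottom, points), over the distance of the anchor's middle from the EHF start (kb). Dashed lines are the starts of EHF and CD44 and the gray band is ELF5; no anchor stands at the EHF start, and the highest coverage, 41, stands between the genes.

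ELF5 had 0 loops in the stretch given for it, also when the stretch was widened by 5 kb at each end, with the same interval of 0 to 3.69. It lay in the widest gap between anchors of the window, 122 kb from 34464001 to 34586000, which reached 36 kb beyond the stretch on one side and 51 kb on the other. By contrast, 15.8% of all bins of the window were anchors. The next widest gap was 64 kb. ELF5 is 46.4 kb long on GRCh38, longer than the stretch given for it and shorter than this gap of 122 kb. A single loop with both bins in the window passed over ELF5, from 34462001 to 34618001 (156 kb, 1 contact), and it ended in the stretch upstream of EHF. With the loops of the locus that had 1 bin outside the window included, 14 passed over it.

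Between EHF and CD44, the anchor from 34936001 to 34938000 had 5 loops and a coverage of 41, the highest among the first bins of the window. It lay 294.4 kb after the EHF start and 223.4 kb before the CD44 start. Its loops had 1 contact each and spans of 88, 122, 452, 828 and 898 kb, so they led mostly to places far from both starts. Only the order of genes is known here, in which APIP and PDHX stand between EHF and CD44, and the anchor was assigned to neither. Between 169.4 and 243.4 kb after the EHF start there were 5 further stretches, with 2 to 5 loops each.

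Few loops joined EHF with CD44. With neighbourhoods of 50 kb around each start, 1 loop joined them (interval 0.0253 to 5.57). Another 9 loops lay within the neighbourhood of EHF and 7 within that of CD44. These counts are not alike, as the starts are 517.8 kb apart and loops within a neighbourhood are short. How often loops join other places this far apart was not counted. The joining loop spanned 574 kb, from the bin at 34606001, 35.6 kb before the EHF start, to the bin at 35180001, 20.6 kb after the CD44 start. The count was 0 with 25 kb and 2 with 100 kb, the added loop spanning 442 kb from 22.4 kb after the EHF start to 53.4 kb before the CD44 start. Another 17 loops left the 50 kb neighbourhood of EHF and 13 left that of CD44 for other places.

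Loops were split at the midpoint between the starts of EHF and CD44. Of the 66 loops with both bins in the window, 23 lay on the side of EHF, 33 (50%, Wilson interval 38.3 to 61.7%) lay on the side of CD44, and 10 (15.2%, 8.44 to 25.7%) crossed the midpoint. Those that crossed had a median span of 399 kb, against 52 kb for the others. Loops shorter than 200 kb with their bins on opposite sides numbered 5 at the EHF start and 9 at the CD44 start, besides the 3 loops that ended in the bin of the CD44 start. Apart from a point on an anchor, 1 segment between the genes was passed over by none of them. It ran from 359.4 to 377.4 kb after the EHF start, which is 158.4 to 140.4 kb before the CD44 start, and 8 to 9 longer loops with both bins in the window passed over it.

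**Figure D4:**
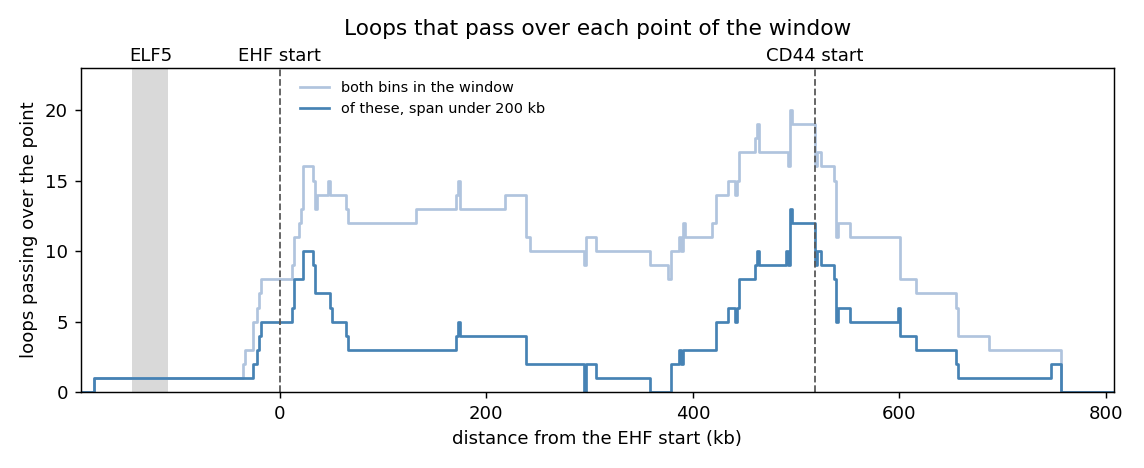
Number of loops that pass over each point (y axis) by distance from the EHF start (x axis, kb), for all loops with both bins in the window (light) and for those under 200 kb (dark). Dashed lines are the starts of EHF and CD44 and the gray band is ELF5; the dark line reaches its highest value, 13, at 22.4 kb before the CD44 start and 0 between 359.4 and 377.4 kb.

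As nearly all loops rested on 1 contact, their recurrence between neighbouring bins was counted. At the locus, 18 of 82 loops (22.0%, Wilson interval 14.4 to 32.1%) had another loop with both bins within 4 kb, against 19.9% of the whole list. They comprised 5 loops in the region of EHF and 13 in that of CD44. Counted by stretches, 8 of 72 joined pairs (11.1%, 5.74 to 20.4%) had at least 2 loops, against 9.00% in the list. The recurrence at the locus was thus close to that of the list. Of these 8 pairs, 2 lay at EHF and both involved the stretch at 31.4 to 37.4 kb. Another 3 involved the stretch at the CD44 start, and the longest of the 8 joined a stretch 132.4 to 124.4 kb before the CD44 start to the one 77.6 to 83.6 kb after it, by loops of 210 and 206 kb.

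Finally, 16 loops left the window, 14 to lower and 2 to higher positions. The 14 were grouped by the distance of the outer bin after they had been seen, and no difference between the groups was tested. Of the 7 loops whose outer bin lay more than 1 Mb below the window, from 32730001 to 33186000, 5 ended nearer to the CD44 start and 2 nearer to the EHF start. Of the 6 loops whose outer bin lay within 500 kb below the window, 5 ended nearer to EHF and 1 nearer to CD44. The remaining loop, from 33688001, ended nearer to CD44. The former 7 spanned 1274 to 2670 kb and the 6 spanned 230 to 828 kb, each with 1 contact. One outer bin, from 32914001, had a coverage of 119, far above any first bin inside the window, of which the highest had 41. It was joined to the anchor at 35076001, 83.4 kb before the CD44 start. Of the EHF and CD44 starts, that of EHF is the nearer to all outer bins below the window.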

How the data were processed

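KYSE180 H3K27ac HiChIP was done in 2 libraries after transfection of a non-targeting siRNA. Reads went through HiC-Pro, loops, described as p63-associated, were called by FitHiChIP (Peak-To-All), those lacking H3K27ac at either end were dropped by the authors, and 1 list stands for both libraries. The submitters' processing notes name hg19. Versions and thresholds are not given in the sources used here. Its 2 columns of counts were deposited as raw, unnamed whole numbers. By the order in which FitHiChIP writes columns, they are taken here as the contacts of a loop and the coverage of its first bin, which was constant in each of 21636 first bins and exceeded by the contacts in 0. Library depth is unknown, and coverage is listed only for first bins.

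The window and the places of EHF, CD44 and ELF5 were given with the choice of the locus, and the members and gene lists were chosen with earlier results of these data known. The named genes are these 3 and, by order only, their neighbours. Bins within 1 kb of a start were taken as the promoter. Touching anchors were merged into stretches. Shares have 95% Wilson and counts exact Poisson intervals, in which a count of 0 reaches up to 3.69, and with 1 list no test between samples was made. The alternatives were other promoter widths (5, 10 and, added later, 20 kb), neighbourhoods of 25 and 100 kb, both bins in the window, a minimum span of 20 kb, at least 2 contacts, merging across 4 kb and other windows of 1 Mb. Stretches with at least 5 loops were picked after their values were seen. Counts of the window's loops and contacts, of loops near a start and of stretches were tested on simulated data. The other counts were not. Promoters came from a RefSeq table on GRCh38.p14, in which 3 of 3 genes matched, and no position was converted between builds. Computation was done in Python 3.11.15 with pandas 2.3.3, numpy 2.4.6, scipy 1.17.1 and matplotlib 3.10.9.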

Additional observations from a re-analysis of the deposited data

How the results depend on the processing

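No paired analysis was possible because a single list stands for both libraries, which also means that neither could be left out. Of 23 recomputed values of 10 results, 14 stayed close to the reported value and 9 moved. With both bins in the window the median span fell from 104 to 60 kb, since loops that leave the window are long. The loops near CD44 numbered 9, 12 and 14 within 5, 10 and 20 kb of the start in place of 3 within 1 kb, and those near EHF 12 within 20 kb instead of 0, since a wider window takes in more anchors. The 20 kb width was chosen after seeing the data. Loops with at least 2 contacts left 2 at the locus. The loops between EHF and CD44 were 0 with 25 kb and 2 with 100 kb in place of 1. By distinct anchors, 2.29% of the windows with at least 1 loop were as high in place of 4.55% by loops. Single contacts limit every count here.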
